A study of Homo sapiens with 6 samples.

Results

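The genes described here are 34 genes of glycolysis and of the response to low oxygen, read in human cells in which TET1, TET2 and TET3 had been knocked down together. They are a list of gene names, with no threshold on a value of these arrays in the rule: glucose transporters, enzymes from hexokinase to lactate dehydrogenase, genes induced by hypoxia-inducible factor (HIF), 3 regulators of glycolytic flux and 2 HIF alpha subunits. Of the 34, 33 had a probe set with that single gene symbol among the 19775 genes named on the array, and CA9 was not analysed here. The 33 genes had 70 probe sets, of which 61 were bright enough to test, and each gene was read at its brightest probe set unless another is named. All 33 passed the filter on dim probe sets at that probe set.

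The cells were Flp-In T-REx 293, a derivative of HEK293, a human embryonic kidney line, built for placing a transgene at a fixed site. Every sample carried a stable, inducible GFP transgene that had been left uninduced, as 1 of 3 clones named by number. The knockdown group (3 arrays, clones 1, 2 and 3) had received siRNAs against TET1, TET2 and TET3 at the same time, while non-targeting siRNAs went into the control group (3 arrays, the same clones). RNA of both groups dates from 96 h after siRNA. The labels name 1 culture medium for all samples and no change of oxygen or glucose, and p-values measure the spread between these 6 arrays.

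Glycolysis splits glucose into pyruvate in the cytosol and returns ATP and NADH, and lactate dehydrogenase turns pyruvate into lactate to recover NAD+. When oxygen is short, the prolyl hydroxylases that mark HIF alpha subunits for VHL-dependent destruction lose activity, and stabilised HIF1A or EPAS1 (HIF-2 alpha) pairs with ARNT and binds DNA at a core of A or G followed by CGTG. TET enzymes, like those prolyl hydroxylases, use oxygen, iron and 2-oxoglutarate, and they oxidise 5-methylcytosine in DNA.

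The targeted transcripts were lower in all clones, as read at the brightest probe set of each. TET1 had signals of 448, 621 and 685 in knockdown clones 1, 2 and 3 against 3073, 3123 and 3470 in the control, which left 17.9%. TET2, at 417, 283 and 442 against 868, 715 and 820, was left at 46.8% of control. TET3, at 505, 594 and 537 against 1451, 1240 and 1138, was left at 42.9%. Only TET1 passed over all tested probe sets without a clone term (limma adjusted p = 0.00225, against 0.198 for TET2 and 0.0678 for TET3), and all 3 passed with it (3.09e-06, 0.00468 and 0.00206). Of 10 genes that mark HEK293 cells, 9 lay above the filter, with LHX1 below it, and their summed signal was 67941 to 80666 in the knockdown and 78065 to 83855 in the control. Of 12 markers of other cell types with a probe set, 4 lay above the filter, with sums of 3015 to 3308 and 2279 to 3200 over all 12. One of these, the smooth muscle actin ACTA2, was at 1349 to 1563 in the knockdown and 721 to 1155 in the control (log2 0.69, limma adjusted p = 0.463 without and 0.0421 with the clone term), and its part in any result below was not tested. The collagen gene COL1A1, also above the filter, went the other way, with 88.8, 83.7 and 83.3% of control left in clones 1, 2 and 3. Of the 4 markers 2 had a positive and 2 a negative value. Both arrays of clone 1 stood apart from the other 4: their deviations from the group means correlated at 0.493 over probe sets, against 0.234 and 0.236 for clones 2 and 3, so results are also given by clone.

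Across the 33 genes the knockdown and the control differed little, and the clearest single difference was a lower PGK1. The median log2 difference, knockdown minus control, was -0.04 over the 33 genes and 0.007 over all 12318 genes tested, and the values ran from -0.59 (SLC2A3) to 0.40 (ALDOC). Values were negative in 21 of the 33 genes and in 5921 of the 12318. The size of the difference was under 0.2 in 27 of the 33, and its median of 0.08 compares with 0.11 over all genes tested. In 26 of the 33 the 95% interval of the difference lay within 1.5-fold in either direction without the clone in the fit, and in 29 with it. Intervals that reached beyond 1.5-fold in both fits were those of SLC2A3, ALDOC, PFKFB4 and EPAS1. Those of PFKL, NDRG1 and DDIT4 did so only without the clone: with it the interval ran from -0.46 to -0.13 for NDRG1 and from -0.21 to 0.18 for DDIT4. Each SE and 95% interval below comes from the fit without the clone unless stated otherwise. That fit ignores the pairing by clone, so its intervals also hold the spread between clones.

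No member was called in limma without a clone term, where the smallest adjusted p was 0.738 (PGK1). Over all 27306 tested probe sets that fit called 4, or 0.0146%. At an unadjusted p under 0.05 it held 1 member lower (PGK1) and 0 higher, where 3.37% and 3.59% of all genes tested were lower and higher. With the clone as a term (the replicate block), 1.03% of probe sets were called and again 0 members at their brightest probe set, the smallest adjusted p being 0.104 (NDRG1). At an unadjusted p under 0.05 that fit held 5 members lower, namely SLC2A3, PGK1, VEGFA, NDRG1 and EPAS1, and 0 higher, where 7.53% and 8.61% of all genes were lower and higher. No member had groups without overlap at its brightest probe set, against 6.41% of all genes with the knockdown lower and 6.77% with it higher. Lower in 3 of 3 clones were 9 members, where 18% of all genes were, and higher in 3 of 3 were GPI and ENO2, where 19.9% were.

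**Figure D1:**
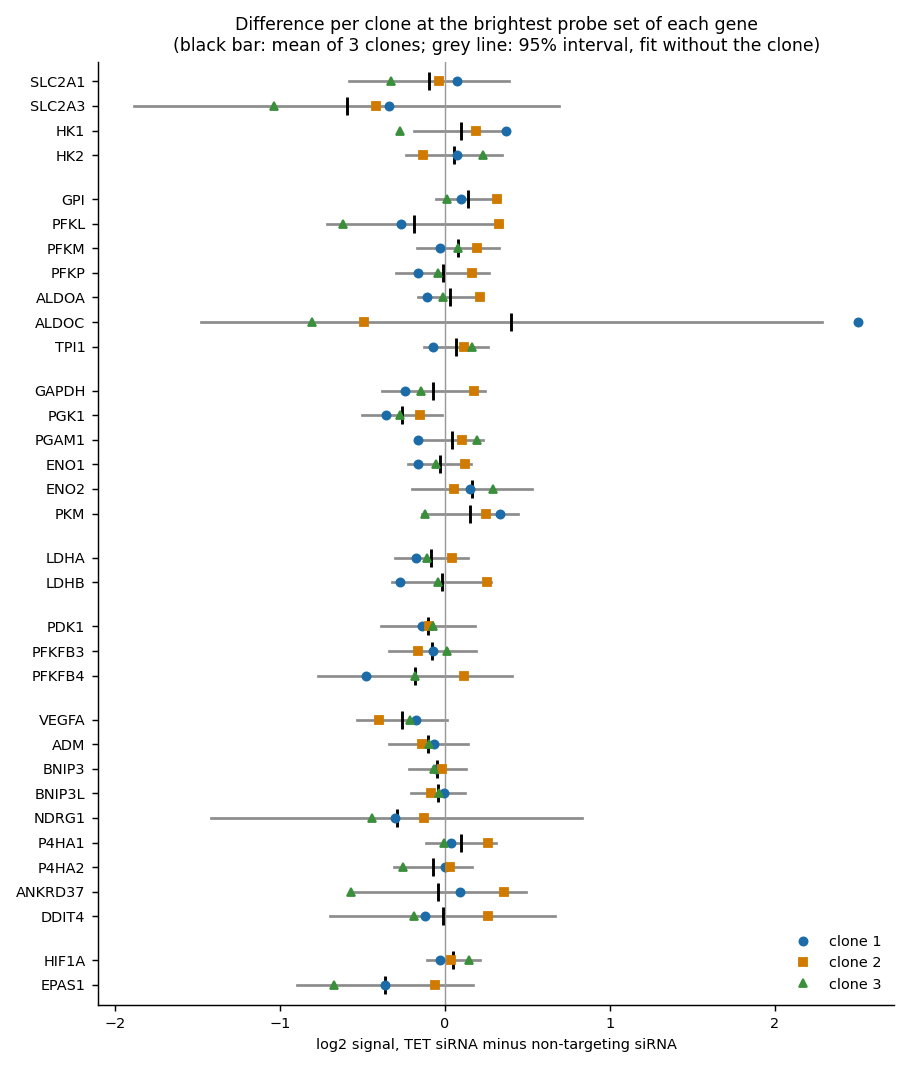
Log2 difference in signal, knockdown minus control (x axis), for each of the 33 genes at its brightest probe set (y axis), with the value in each clone and the mean with its 95% interval from limma without a clone term. Most means lie within 0.2 of 0, the interval of PGK1 alone leaves out 0 in this fit, and SLC2A3 and ALDOC have the widest intervals. With the clone in the fit the intervals of SLC2A3, VEGFA, NDRG1 and EPAS1, not drawn here, leave out 0 as well.

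PGK1 encodes phosphoglycerate kinase, the first ATP-yielding step of glycolysis and a textbook HIF target. At its brightest probe set the signals were 25802, 33653 and 30498 in knockdown clones 1, 2 and 3, and 32980, 37390 and 36765 in the control clones. Every clone was lower in the knockdown, but the groups overlapped, since knockdown clone 2 lay above control clone 1. The means were 29984 ± 3951 and 35712 ± 2387 (SD, n = 3 each), a log2 difference of -0.26 (SE 0.11, 95% interval -0.50 to -0.02, limma adjusted p = 0.738, and 0.134 with the replicate block).

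Of the 5 other PGK1 probe sets 4 were lower by 0.33 to 0.39 on the log2 scale, and 2 of them passed once the clone was in the fit. At 227068_at the knockdown signals were 5147, 4680 and 4683 and the control signals 7123, 6170 and 5793. The highest knockdown value lay below the lowest control value, and 72.3, 75.8 and 80.8% of control was left in clones 1, 2 and 3. The log2 difference of -0.39 (SE 0.10) had a limma adjusted p of 0.454 without and 0.0247 with the replicate block. At 200737_at the knockdown signals were 6821, 8166 and 6973 and the control signals 8613, 9488 and 10000. Again the groups did not overlap, with 79.2, 86.1 and 69.7% of control left in the clones. The log2 difference there was -0.36 (SE 0.10), with adjusted p = 0.505 without and 0.0475 with the block. Of the 61 tested probe sets of the 33 genes these were the only calls, both lower, where the block called 0.648% of all tested probe sets as lower. The other PGK1 probe sets gave log2 differences of -0.33 (217356_s_at, blocked limma adjusted p = 0.0914), -0.35 (217383_at, 0.460) and 0.03 (1558365_at, 0.979). The 4 tested probe sets of the 33 genes with an unadjusted p under 0.05 in the fit without the clone were all of PGK1, and all lower, so they are readings of 1 gene and not independent. Neither call held with the replicate block when both arrays of clone 1 were left out (limma adjusted p = 0.145 at each) or both of clone 3 (0.156 at 227068_at and 0.473 at 200737_at), nor with plain empirical Bayes (0.323 and 0.354), while both held without clone 2. The suffix _s_at marks probe sets that can pick up more than 1 transcript, and neither called probe set carries it. Of the 33 genes 18, PGK1 among them, were read at a brightest probe set with that suffix or _x_at, which can also cross-hybridise.

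**Figure D2:**
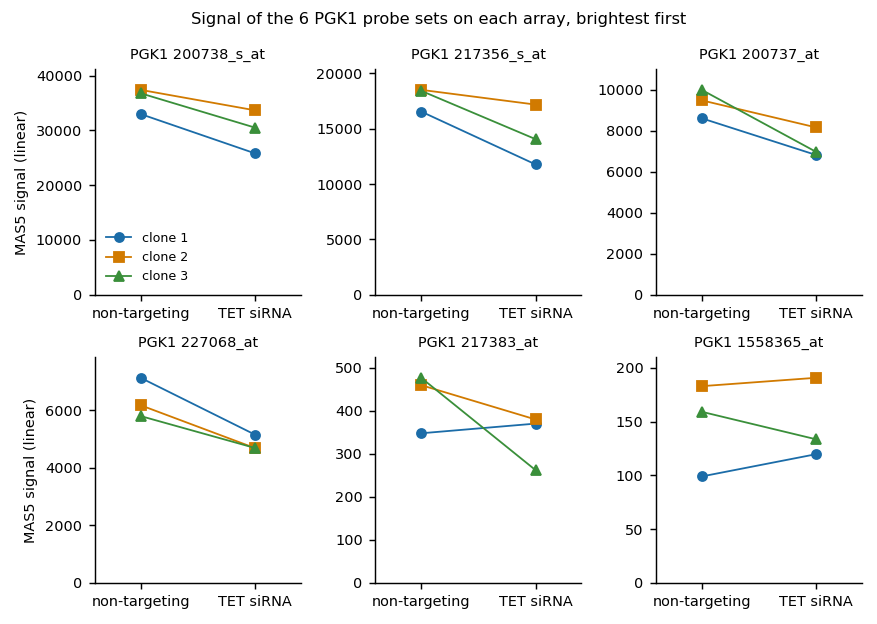
Signal of each tested PGK1 probe set (panels, linear y axis) in the control and the knockdown (x axis), 1 point per array with lines joining the arrays of 1 clone. At 227068_at and 200737_at all 3 knockdown points lie below all 3 control points, while at the brightest probe set the groups overlap and at 1558365_at the clones go in different directions.

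Because the HIF core motif is short, the promoters of 3 HIF targets are shown: PGK1, the member with calls, and LDHA and BNIP3, for which no call was made. Each runs from 250 bases before to 50 after a transcription start in RefSeq (GRCh38.p14), 5' to 3' on the gene's strand, with capitals on ACGTG or its reverse complement CACGT. PGK1 lies at chrX:78103998-78104297 on the plus strand and holds 3 matches, beginning 202 and 183 bases upstream and 29 downstream of the start, the first on the strand shown. LDHA lies at chr11:18394313-18394612 on the plus strand with 5 matches, 4 of them as pairs in the palindrome CACGTG, which reads on both strands. BNIP3 lies at chr10:131981874-131982173 on the minus strand with 2 matches, both in a single palindrome.
PGK1: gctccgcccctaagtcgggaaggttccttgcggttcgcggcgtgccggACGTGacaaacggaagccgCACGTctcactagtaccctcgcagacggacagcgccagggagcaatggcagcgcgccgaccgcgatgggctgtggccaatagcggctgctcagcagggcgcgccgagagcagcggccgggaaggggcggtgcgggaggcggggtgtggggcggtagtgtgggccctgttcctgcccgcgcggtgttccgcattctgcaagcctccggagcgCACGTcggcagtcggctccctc
LDHA: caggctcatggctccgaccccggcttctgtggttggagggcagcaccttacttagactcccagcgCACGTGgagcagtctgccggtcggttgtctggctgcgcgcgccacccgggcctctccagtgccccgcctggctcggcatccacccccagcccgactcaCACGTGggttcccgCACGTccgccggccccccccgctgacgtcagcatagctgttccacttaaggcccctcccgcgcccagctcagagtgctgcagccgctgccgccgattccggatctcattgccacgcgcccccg
BNIP3: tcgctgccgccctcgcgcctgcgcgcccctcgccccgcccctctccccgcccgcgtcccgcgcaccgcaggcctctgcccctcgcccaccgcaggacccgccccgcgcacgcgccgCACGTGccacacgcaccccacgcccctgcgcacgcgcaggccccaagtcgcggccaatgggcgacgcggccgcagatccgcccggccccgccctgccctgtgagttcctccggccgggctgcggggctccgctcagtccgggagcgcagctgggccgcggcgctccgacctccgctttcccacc

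Promoters were counted for 30 of the 34 genes, in 53 entries, with none counted for SLC2A3, VEGFA, BNIP3L and NDRG1. Any entries on the chromosome that carries BNIP3L and NDRG1 were left out for the members but kept among all promoters. ACGTG on either strand stood in 22 of the 53 (41.5%), against 21.4% of all 35116 promoters of the same length. Counting genes with at least 1 such promoter, 18 of 30 (60.0%) held it, against 24.9% of all genes in the table. The members have more entries per gene (53 for 30 genes, against 35116 for 27305), which raises a count of genes with at least 1. With GCGTG also allowed the shares were 67.9% of promoters and 93.3% of genes, against 48.4% and 52.4%. The 3 printed promoters also hold 1 (PGK1), 1 (LDHA) and 4 (BNIP3) matches of GCGTG, which are not in capitals. LDHA has another entry, not printed, with 0 matches of ACGTG. The promoters of these genes hold more CG dinucleotides than most, with a median of 28.0 against 14.0, and both motifs contain CG. A match is a description of letters, and no binding or methylation was measured on these arrays.

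At the entry of glucose into the pathway, no member was called. SLC2A1 (GLUT1), the main glucose transporter of most cultured cells, averaged 1320 ± 391 in the knockdown against 1384 ± 241 in control cells (SD, n = 3 each), with a log2 difference of -0.10 (95% interval -0.58 to 0.39). SLC2A3 (GLUT3), a high-affinity transporter, gave the lowest value of the 33 genes. Its signals were 259, 130 and 397 in knockdown clones 1, 2 and 3 against 327, 173 and 813 in the control. The groups overlapped widely, because control clone 2 lay below knockdown clones 1 and 3, and each clone was lower in the knockdown, by 0.33, 0.42 and 1.03 on the log2 scale. The log2 difference was -0.59 (SE 0.57, limma adjusted p = 0.905, and 0.206 with the replicate block). Leaving out 1 array, which breaks the pairing by clone, gave -0.0041 without control clone 3, -0.16 without knockdown clone 2 and -1.12 without control clone 2. With both arrays of clone 1, 2 or 3 left out the difference was -0.72, -0.68 and -0.38. The other tested probe sets of SLC2A3 gave -0.31 and -0.48, with clones in both directions.

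The hexokinases trap glucose in the cell by phosphorylation. HK1, the widely expressed form, differed by 0.10 (95% interval -0.19 to 0.38). HK2, the HIF-inducible form, differed by 0.06 (-0.23 to 0.35) at its brightest probe set. A dimmer HK2 probe set, 222305_at, had signals of 904, 884 and 867 in the knockdown and 702, 782 and 733 in the control. Its groups did not overlap, with the knockdown higher by 0.26 (limma adjusted p = 0.774, and 0.335 with the block). The remaining tested HK2 probe set differed by -0.46, in the opposite direction. Over these 4 transporters and hexokinases 2 values were positive, and the median was -0.02.

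The 7 enzymes of upper glycolysis had a median of 0.07, with 5 positive values and 0 calls in either limma fit (0 at an unadjusted p under 0.05). GPI, which converts glucose 6-phosphate to fructose 6-phosphate, had the smallest p of the members that lay higher. Its signals were 8696, 9603 and 9113 in knockdown clones 1, 2 and 3 and 8135, 7716 and 9015 in the control. Every clone was higher, yet control clone 3 lay above knockdown clone 1, so the groups overlapped. The log2 difference was 0.14 (SE 0.09, 95% interval -0.05 to 0.34, limma adjusted p = 0.822, and 0.420 with the block). Of the phosphofructokinase subunits, which make the committed step, PFKL differed by -0.18, PFKM by 0.08 and PFKP by -0.01. The aldolase ALDOA differed by 0.03 and triose phosphate isomerase, TPI1, by 0.07. ALDOC, the brain-type aldolase, had the highest value of the 33 genes, 0.40, but its interval ran from -1.48 to 2.29. Its signals were 207, 292 and 253 in the knockdown and 36.4, 410 and 442 in the control, so that control clone 1 was far below the rest. The value was positive in clone 1 alone (2.51) and negative in clones 2 and 3 (-0.49 and -0.80).

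In lower glycolysis, 3 of 6 enzymes had a positive value and the median was 0.008, with PGK1 the only one at an unadjusted p under 0.05. GAPDH, which makes 1,3-bisphosphoglycerate ahead of PGK1, had signals of 45833 ± 9160 against 47519 ± 3709 (SD, n = 3 each), a log2 difference of -0.07 (95% interval -0.38 to 0.24). PGAM1, the mutase that follows PGK1, differed by 0.05 (-0.14 to 0.23). The enolase ENO1 differed by -0.03 (-0.22 to 0.16). ENO2, the neuronal enolase, was at 973, 1244 and 1132 in the knockdown and 873, 1197 and 925 in the control. It was higher in each clone with overlapping groups, by 0.17 (-0.20 to 0.53, limma adjusted p = 0.905). PKM, pyruvate kinase, was at 2014, 1718 and 1619 in the knockdown and 1600, 1442 and 1762 in the control. Clones 1 and 2 were higher and clone 3 lower, the groups overlapped, and the log2 difference was 0.15 (-0.14 to 0.45, adjusted p = 0.885). PGK1 therefore stood between neighbours in the pathway, GAPDH and PGAM1, whose own intervals included 0; the differences between these genes were not tested.

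The lactate dehydrogenase subunits were not called. LDHA, which favours lactate formation, averaged 42888 ± 5218 in the knockdown against 45151 ± 2319 in control cells (SD, n = 3 each), with a log2 difference of -0.08 (95% interval -0.30 to 0.14). LDHB, the heart-type subunit, differed by -0.02 (-0.32 to 0.28). Both were lower in clones 1 and 3 and higher in clone 2.

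Of 9 HIF-inducible genes outside glycolysis, 8 had a negative value, where 5921 of all 12318 genes tested did. Lower in 3 of 3 clones were 5 of the 9, where 18% of all genes were. Yet 0 were called in either limma fit, and their median was -0.05. At an unadjusted p under 0.05 there were 0 without the clone and 2, both lower, with it (VEGFA and NDRG1). Of all genes 3.37% were lower at that p without the clone and 7.53% with it. VEGFA, the vascular growth factor, had signals of 3441, 3935 and 3922 in knockdown clones 1, 2 and 3 and 3885, 5177 and 4532 in the control. The groups overlapped only in that control clone 1 lay below knockdown clones 2 and 3. The log2 difference was -0.26 (SE 0.12, 95% interval -0.53 to 0.01, limma adjusted p = 0.774, and 0.136 with the block). With the block the 95% interval was -0.42 to -0.09. The other VEGFA probe sets differed by -0.15, -0.27 and 0.14, so they did not share 1 direction.

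NDRG1, a stress-responsive gene strongly induced in hypoxia, varied more between clones than between treatments. Its signals were 5583, 17106 and 15341 in the knockdown and 6883, 18697 and 20848 in the control. Clone 1 was low in both groups, and within each clone the knockdown was lower, by 0.30, 0.13 and 0.44 on the log2 scale. The log2 difference of -0.29 had an SE of 0.49 without the clone (limma adjusted p = 0.958) and passed in no fit on all 6 arrays. With the block and clone 2 left out it passed, as did PGK1 (adjusted p = 0.0117 and 0.0447), from 2 clones.

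The remaining HIF-inducible members differed by 0.10 or less in size. ADM, the vasodilator peptide adrenomedullin, differed by -0.10, and the mitophagy receptors BNIP3 and BNIP3L by -0.05 and -0.04, all 3 lower in each clone. The collagen prolyl hydroxylase subunits P4HA1 and P4HA2 differed by 0.10 and -0.07. P4HA1, the third smallest p among members that lay higher, was at 4403, 5224 and 4612 in the knockdown and 4279, 4355 and 4628 in the control, with overlapping groups (limma adjusted p = 0.901). ANKRD37, a small ankyrin-repeat gene induced by HIF, differed by -0.04 and DDIT4 (REDD1), an inhibitor of mTORC1, by -0.01.

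**Figure D3:**
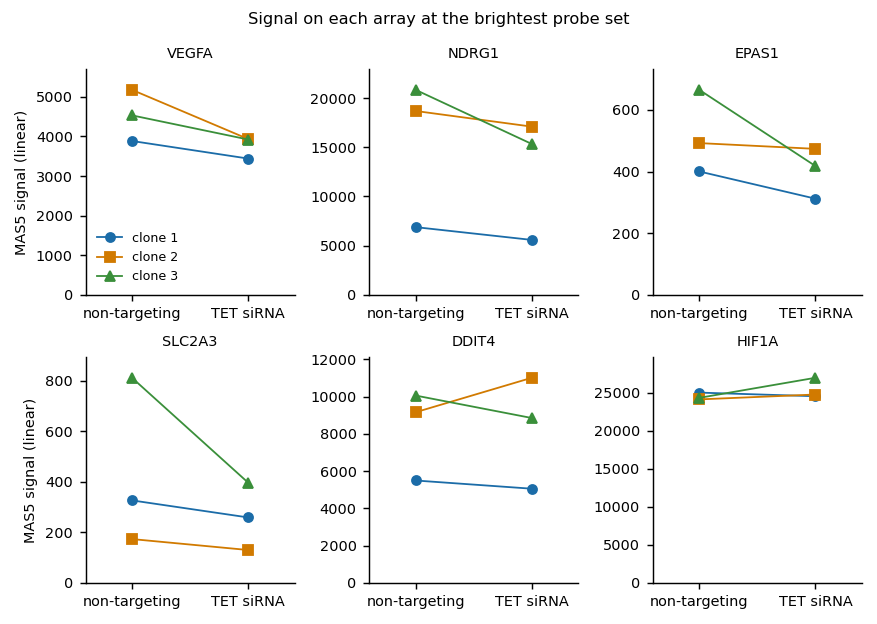
MAS5 signal per array on a linear y axis for VEGFA, NDRG1, EPAS1, SLC2A3, DDIT4 and HIF1A (panels), control beside knockdown on the x axis, with lines joining arrays of 1 clone. VEGFA, NDRG1, EPAS1 and SLC2A3 slope down in all 3 clones, NDRG1 and DDIT4 show clone 1 far below clones 2 and 3, and HIF1A is nearly level.

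All 3 flux regulators had a negative value, with a median of -0.10, and none was called in limma (0 at an unadjusted p under 0.05). PDK1, a kinase that switches off pyruvate dehydrogenase under HIF control, differed by -0.10 (95% interval -0.39 to 0.18), with values of -0.14, -0.10 and -0.07 in clones 1, 2 and 3. Its other tested probe sets gave -0.11 and -0.23. PFKFB3 and PFKFB4, which set the level of the PFK activator fructose 2,6-bisphosphate, differed by -0.07 and -0.18, and neither had 1 sign in the 3 clones.

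The HIF alpha subunits were read as transcripts, while HIF is mainly controlled at the level of the protein, which was not measured here. HIF1A had signals of 24552, 24779 and 26981 in knockdown clones 1, 2 and 3 and 25030, 24136 and 24339 in the control. The groups overlapped and the clones went both ways, with a log2 difference of 0.05 (SE 0.07, 95% interval -0.11 to 0.21, limma adjusted p = 0.939). That interval is narrow, so a HIF1A change of more than 1.5-fold lies outside it. EPAS1 had signals of 312, 474 and 418 in the knockdown and 400, 492 and 665 in the control. It was lower in each clone, but knockdown clones 2 and 3 lay above control clone 1. The log2 difference was -0.36 (SE 0.23, -0.89 to 0.17, adjusted p = 0.838, and 0.341 with the block). With the block the 95% interval was -0.72 to -0.0046. The other EPAS1 probe sets were below the filter and not tested, with log2 differences in the other direction (1.25 and 0.28).

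The genes were also compared between clones. Averaging both arrays of a clone, the range over the 3 clones had a median of 0.29 on the log2 scale over the 33 genes, against 0.25 over all genes tested. It exceeded the 95th percentile of all genes in 4 members: ALDOC (3.98-fold between the highest and lowest clone), SLC2A3 (3.79-fold), NDRG1 (2.88-fold) and DDIT4 (1.91-fold). These 4 were singled out after their values were seen. In ALDOC the range rested on control clone 1, at 36.4, since the knockdown arrays alone differed 1.41-fold between clones. In NDRG1 the highest clone was 3.06-fold above the lowest within the knockdown and 3.03-fold within the control. In DDIT4 the signals were 5054, 11015 and 8853 in the knockdown and 5495, 9164 and 10060 in the control, so clone 1 was the lowest under both siRNAs. Clone 1 was the lowest of the 3 clones in 23 of the 33 genes (69.7%), against 46.6% of all genes tested. SLC2A3 did not share that order, since its lowest clone was clone 2 and its highest clone 3. The median of the 33 log2 differences was -0.07 in clone 1, 0.06 in clone 2 and -0.09 in clone 3, so it had no common sign. Each clone is 1 line with 1 array per siRNA, and whether these differences belong to the clone or to a culture or array handled together cannot be told apart.

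**Figure D4:**
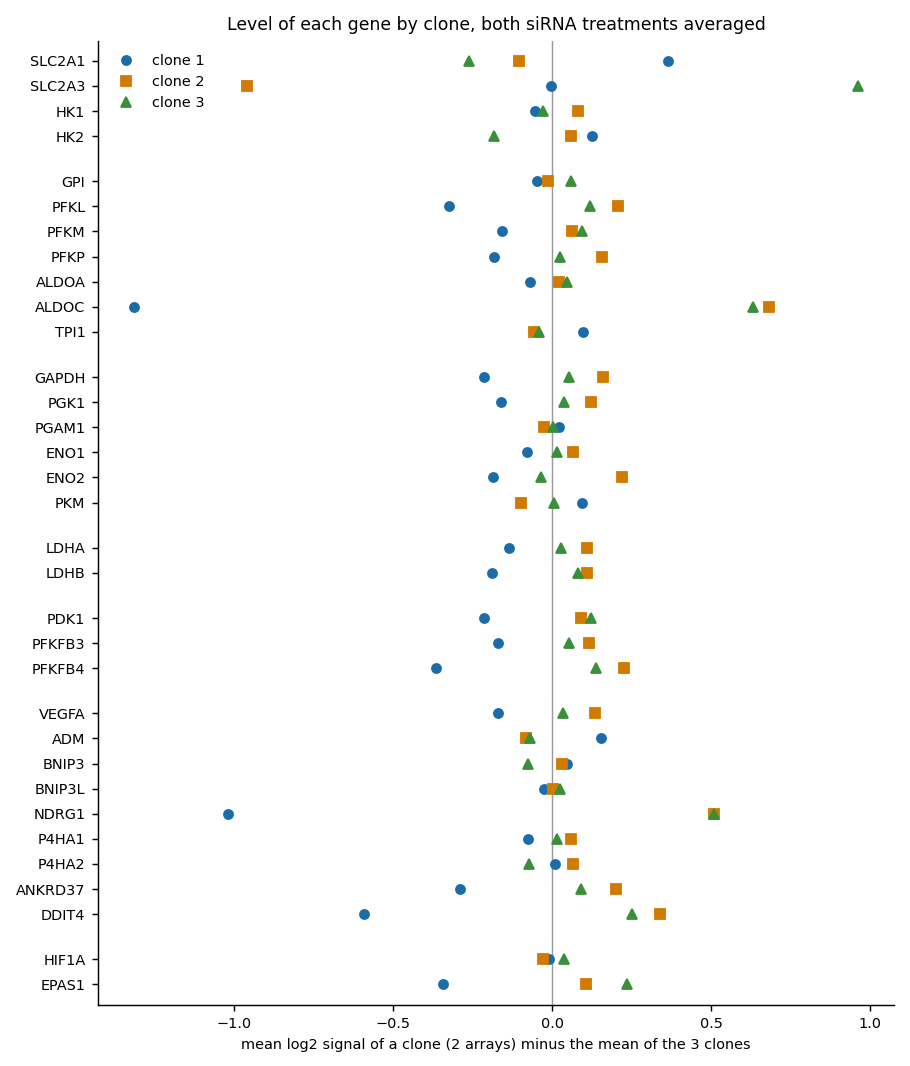
Mean log2 signal in clones 1, 2 and 3, relative to the gene's mean over the 3 clones (x axis, log2), for each of the 33 genes (y axis), averaging the knockdown and control array of each clone. Clone 1 lies lowest in 23 of the 33, and NDRG1, DDIT4, ALDOC and SLC2A3 spread the most.

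Where several probe sets read 1 gene, they mostly gave 1 sign. Of 15 members with at least 2 tested probe sets, 10 had the same sign at all of them: ALDOA, PKM and TPI1 were positive throughout, and BNIP3, BNIP3L, LDHB, P4HA2, PDK1, PFKL and SLC2A3 negative. In ENO1, GAPDH, HK2, PGK1 and VEGFA the signs were mixed. Over the 15, PGK1 alone had a tested probe set past the threshold in either fit.

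Other genes of the same pathways, 134 in 5 lists, were read by the same fits to place the 33 genes. Of these, 120 had a probe set and 95 were bright enough to test. Without the clone limma called 0 of the 95. At an unadjusted p under 0.05 that fit held 2 lower and 2 higher, where 3.37% and 3.59% of all genes were. With the block it called 1, PDK3, as lower, where it called 0.836% of all genes as lower at their brightest probe set. The block held 9 lower and 4 higher at an unadjusted p under 0.05, where 7.53% and 8.61% of all genes were. The median over the 95 was -0.02. PDK3, a pyruvate dehydrogenase kinase like PDK1, had signals of 4551, 6116 and 5731 in knockdown clones 1, 2 and 3 and 6016, 7175 and 7485 in the control. Each clone was lower, and the groups overlapped because knockdown clone 2 lay above control clone 1. The log2 difference was -0.34 (SE 0.13, limma adjusted p = 0.707 without and 0.0466 with the block). That call was lost without both arrays of clone 1 (blocked adjusted p = 0.188) or clone 3 (0.397) and held without clone 2 (0.00686). On all 6 arrays it was lost with the block and plain empirical Bayes (0.345) or no filter (0.188). The other tested PDK3 probe sets gave log2 differences of -0.42, -0.36, -0.15 and -0.06 (blocked limma adjusted p = 0.0768, 0.168, 0.595 and 0.908). None of these passed in either fit, and at those of -0.15 and -0.06 the clones went in both directions.

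The list of lactate and pyruvate handling, which holds PDK3, had 12 negative values among 15 tested, with a median of -0.10. Of all 12318 genes tested 5921 had a negative value. In the list 8 genes were lower in 3 of 3 clones, where 18% of all genes were. The other kinases of the PDK3 family were PDK4 at -0.48 (blocked limma adjusted p = 0.118) and PDK2 at 0.07, both named after their values were seen. Over the 5 lists together the groups did not overlap in 5 genes with the knockdown lower and in 6 with it higher, of 95, where 6.41% and 6.77% of all genes did so. In this list there were 3, all lower: EMB, a chaperone of monocarboxylate transporters (-0.20), MPC2, of the mitochondrial pyruvate carrier (-0.11), and PDHX, of the pyruvate dehydrogenase complex (-0.14). None of the 3 was called in either fit (limma adjusted p 0.193 to 0.838 over both fits).

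In the other 4 lists no gene was called in either fit. Beside their counts of signs, 6397 of all 12318 genes tested had a positive value and 5921 a negative one. Other glycolytic isoenzymes and branch enzymes had 11 positive values among 16 tested and a median of 0.09. The fructose 2,6-bisphosphate enzyme PFKFB2 was at 573, 582 and 423 in the knockdown against 438, 393 and 371 in the control (log2 0.38), with overlap. The transporter SLC2A12 was at 460, 680 and 739 against 648, 817 and 963 (log2 -0.38), also with overlap. Pentose phosphate and glycogen enzymes had 10 negative values among 13 and a median of -0.06. PGD, the 6-phosphogluconate dehydrogenase, went the other way: it was at 9868, 9469 and 9520 in the knockdown against 8544, 8310 and 8133 in the control, with no overlap (log2 0.21, limma adjusted p = 0.657, and 0.164 with the block). The lactonase PGLS was at 3241, 3595 and 3262 against 3300, 3979 and 4262 (log2 -0.19), with overlap. Oxygen sensing and HIF control had 14 positive values among 19 and a median of 0.04. In it ARNT2, a partner of HIF alpha subunits, was at 482, 444 and 523 against 327, 390 and 362, again with no overlap (log2 0.43, adjusted p = 0.699, and 0.244 with the block). CITED2, an inhibitor of HIF that competes for p300, was at 1507, 1214 and 1354 against 1191, 1172 and 1129 (log2 0.22), with no overlap. The log2 difference was 0.01 for EGLN1, the main HIF prolyl hydroxylase, and 0.12 for VHL, both named after their values were seen. EGLN2, of the same list, was at 28.1, 35.7 and 22.5% of control in clones 1, 2 and 3. Its probe set lay below the filter, so it was not tested, and it too was named after its values were seen. Other HIF-inducible genes had 21 negative values among 32 and a median of -0.04. Adenylate kinase AK4 was at 6104, 6851 and 6651 against 7037, 7172 and 7677 (log2 -0.16), with no overlap. The cyclin CCNG2 was at 2639, 2410 and 2228 against 2187, 2025 and 2208 (log2 0.18), again with no overlap. None of these genes passed in either fit.

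**Figure D5:**
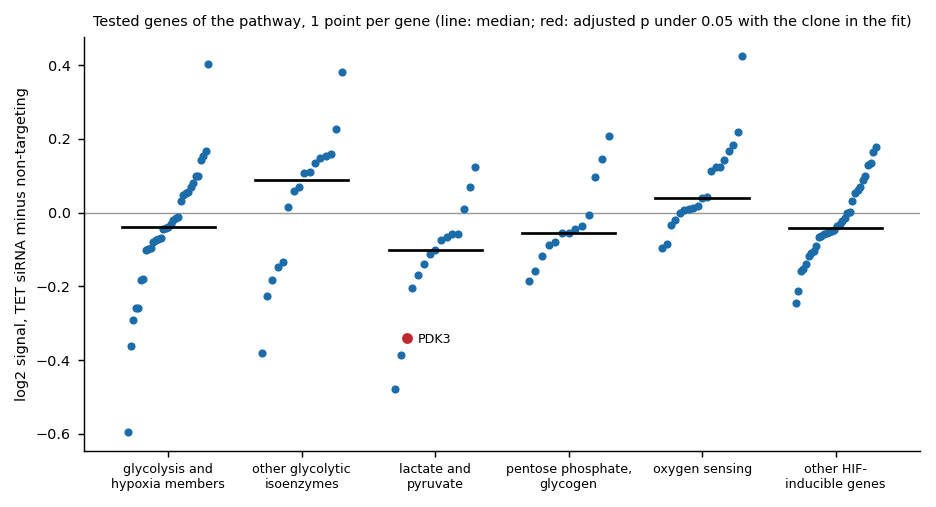
Log2 difference, knockdown minus control (y axis), of every tested gene of the 33 and of the 5 other pathway lists (x axis), 1 point per gene with the median of each list as a bar. Medians lie between -0.10 and 0.09, and PDK3 is the single one of these genes past the limma threshold at its brightest probe set with the replicate block.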

How the data were processed

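Total RNA of 6 cultures was labelled with biotin and hybridised to 1-colour Affymetrix arrays, per the labels. The authors deposited linear intensities, 1 MAS5 signal per probe set and array. The name MAS5 comes from the submitters' processing notes. Its release and the array dates, not given in the sources used here, could not be stated. On each array the mean without the highest and lowest 2% was 1000, so no further scaling was applied. MAS5 treats each array alone, dim probe sets are noisy in it, and 3 arrays per group limit the precision of every value.

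Of 54675 probe sets, 62 controls were set aside. Platform annotation gave 1 gene for 41091 of the rest and several for 1801, and only the former were named. The upper 50% by mean log2 signal (27306 probe sets, geometric mean at least 117) were tested on the log2 scale in limma 3.58.1 (R 4.3.3; lmFit and eBayes with trend and robust steps), two-sided, with no clone term and a Benjamini-Hochberg adjusted p under 0.05 over all of them. Each gene was read at its brightest probe set. The steps were tested on simulated data. Plots were drawn with matplotlib 3.10.9, and promoters came from RefSeq (GRCh38.p14).

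The labels give the clone number in both groups, so same-numbered arrays are paired. Arrays of 1 clone deviated together from the means of their groups, with correlations of 0.493, 0.234 and 0.236, all above 0.1, and arrays of different clones reached up to 0.219. The fit with the clone as a replicate block is an alternative, given beside each call or count it changes.

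The members, the 5 other pathway lists and the alternatives were chosen with earlier results of these data known. Values in every sample are given for members past the threshold in either fit, the 3 smallest p in each direction, groups without overlap, HIF1A and EPAS1; of each other list the passing genes, or else the 2 of smallest p; and TET1 to TET3. Alternatives were no filter or the upper 30%, a pseudocount of 36.1, quantile normalization, plain empirical Bayes, the mean over a gene's probe sets, probe sets without a cross-hybridising suffix, and each array or clone left out.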

Additional observations from a re-analysis of the deposited data

How the results depend on the processing

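At their brightest probe sets 0 members were called in limma under every alternative on all 6 arrays, with 1 member at an unadjusted p under 0.05 without the clone. That last count was 5 with the replicate block, 0 with plain empirical Bayes, 2 with the mean over a gene's probe sets, 4 with the block and plain empirical Bayes and 4 with the block and no filter, and it was 0 to 7 with arrays or clones left out. The count of called members with arrays or clones left out was 0 to 2, the 2 being PGK1 and NDRG1 with the block and without clone 2. Over all probe sets the count of 4 became 282 with the block, 14 in the upper 30%, 1 with plain empirical Bayes, 0 with the block and plain empirical Bayes and 70 with the block and no filter. It was 0 to 684 with arrays or clones left out. The PGK1 calls at 227068_at and 200737_at were lost with the block and no filter (limma adjusted p = 0.119 and 0.191). Called genes of the other lists were 1 with the block and 0 to 2 with arrays or clones left out. The members' median was -0.10 to 0.057 over the same left-out arrays and clones, the positive end being without knockdown replicate 1. Fewer genes could be tested in the upper 30% (29 members), with the mean of probe sets (30) and without the suffix (17).

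Small differences changed sign. With the mean of all probe sets HK2 was -0.049 and ENO1 0.58. That ENO1 mean includes a probe set below the filter with a log2 difference of 2.30, while its tested probe sets ran from -0.03 to 0.05. In that setting ENO1 and PGK1 were the members at an unadjusted limma p under 0.05. With quantile normalization PFKP was 0.00071, LDHB 0.0038 and PGK1 at 1558365_at -0.012, and the cause was not tested. With arrays or clones left out the log2 differences were SLC2A1 -0.32 to 0.092, HK1 -0.039 to 0.28, HK2 -0.078 to 0.15, PFKL -0.44 to 0.033, PFKP -0.13 to 0.12, ALDOA -0.058 to 0.10, ALDOC -0.78 to 1.02, GAPDH -0.21 to 0.082, PGAM1 -0.029 to 0.15, ENO1 -0.11 to 0.043, LDHA -0.17 to 0.012, LDHB -0.16 to 0.14, NDRG1 -0.80 to 0.22, P4HA2 -0.13 to 0.017, ANKRD37 -0.24 to 0.22, DDIT4 -0.28 to 0.31, PDK1 -0.20 to 0.014, PFKFB3 -0.16 to 0.010, PFKFB4 -0.37 to 0.076, PDK2 -0.12 to 0.18 and PGK1 at 1558365_at -0.23 to 0.21. SLC2A3, from -1.12 to -0.0041, kept its sign. NDRG1 changed sign only where 1 array of a clone was left out without its pair. With both arrays of clone 1, 2 or 3 left out NDRG1 was at -0.29, -0.37 and -0.22. VEGFA, GPI, ENO2, PKM, HIF1A and PGK1 at its brightest probe set kept their direction under every alternative that tested them. EPAS1 did so in the 20 alternatives that tested it. These do not include the mean over its probe sets, of which the dim ones were higher in the knockdown (1.25 and 0.28). Arrays of 3 per group and dim probe sets limit these readings, and an interval that includes 0 does not show equal levels.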
